A study of Mus musculus with 6 samples.

Results

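The genes of glucose uptake, glycolysis and the hypoxia response were examined in primary mouse chondrocytes, cartilage cells taken into culture, from which the tumour suppressor gene Nf2 had been deleted and in their controls. The group was chosen by symbol, from a list of 32 genes that take up glucose, carry out glycolysis, or belong to or respond to the hypoxia-inducible factors (HIF), and all 32 were found, on 33 of the 55401 rows of the deposited table. The additional row carries the symbol Aldoa a second time (ENSMUSG00000114515), held 0 to 16 counts per library and was not tested. Poly(A) RNA was sequenced from 3 Nf2-knockout and 3 control libraries. Controls are described as Nf2f/f, that is floxed at both alleles, and the others as Nf2f/f knockout. Which Cre made the deletion, whether controls carry it, the strain, the age of the animals and the culture conditions are not given in the sources used here, although the series describes differentiation and the library names carry D7. For the knockout libraries the treatment field reads TCF21 overexpressing, yet Tcf21 had 0, 2 and 0 counts in Nf2-knockout replicates 1 to 3 and 0 in each control. Nf2 itself (chromosome 11, 4765845 to 4849536, minus strand) stood at 126, 133 and 122 CPM (counts scaled to library size by edgeR) in control replicates 1 to 3 and at 87.9, 100.6 and 97.4 CPM in Nf2-knockout replicates 1 to 3. It was lower in each knockout library (log2 fold change −0.41, adjusted p = 0.0305, edgeR), and the fold of 0.751 was counted over the whole gene. That call was lost in all 6 fits that left out 1 library (adjusted p = 0.0518 to 0.123). Libraries held 50906043 to 63748798 counts, and all 32 members passed the filter on low counts.

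Glycolysis splits glucose into pyruvate in the cytosol and yields ATP without oxygen, and lactate dehydrogenase then converts pyruvate to lactate. HIF is a dimer of an oxygen-labile alpha subunit, HIF-1α (Hif1a) or HIF-2α (Epas1), with the stable subunit ARNT. In oxygen, prolyl hydroxylases (the Egln genes) mark the alpha subunit for destruction through the von Hippel-Lindau protein, and in hypoxia it accumulates and activates genes of glucose transport, glycolysis, angiogenesis and mitophagy. Cartilage has no blood vessels, and its cells rely on glycolysis and, in the growth plate, on HIF-1α for survival. HIF activity is set mainly at the protein level, so the transcripts of its subunits do not measure it, whereas those of its targets are commonly read as its output.

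HIF binds a short core, ACGTG or GCGTG, near the genes it activates, so the promoters of the members were searched for it. RefSeq windows (GRCm38.p6) from 250 bases before to 50 bases after a transcription start were found for 29 of the 32 members, all but Slc2a3, Epas1 and Ndrg1. Either core, on either strand and with overlapping matches counted, was present in at least 1 window of 26 of the 29 members (89.7%), and of 46.7% of the 27025 genes with a window. The letters were absent from the windows of Gpi1, Tpi1 and Car12. Member windows were also richer in CG, with a median of 6.69 CG dinucleotides per 100 bases against 2.34 in all 32851 windows, and the part of this in the difference was not tested. The 150 bases before the start are shown for both lactate dehydrogenase genes, of which Ldhb fell and Ldha did not pass the test, for Pgk1 and Bnip3, which are widely used HIF targets, and for Hif1a itself. For Ldha, which has 2 windows, the most upstream is shown. The starts used for Ldha and Hif1a lie well inside the spans deposited for these genes, which begin at 46841475 and 73901375. Sequences run 5′ to 3′ on the strand of the gene and capitals mark the core on either strand.
Ldha (chr7:46845654-46845803, plus strand): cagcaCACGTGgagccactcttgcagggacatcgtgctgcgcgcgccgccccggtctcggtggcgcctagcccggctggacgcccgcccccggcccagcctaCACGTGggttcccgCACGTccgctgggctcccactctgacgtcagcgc
Ldhb (chr6:142507958-142508107, minus strand): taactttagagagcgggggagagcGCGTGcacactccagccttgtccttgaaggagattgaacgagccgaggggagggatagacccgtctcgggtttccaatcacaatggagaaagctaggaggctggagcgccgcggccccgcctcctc
Pgk1 (chrX:106186950-106187099, plus strand): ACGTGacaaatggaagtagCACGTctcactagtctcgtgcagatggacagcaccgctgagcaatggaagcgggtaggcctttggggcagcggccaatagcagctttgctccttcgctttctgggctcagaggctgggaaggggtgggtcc
Bnip3 (chr7:138909507-138909656, minus strand): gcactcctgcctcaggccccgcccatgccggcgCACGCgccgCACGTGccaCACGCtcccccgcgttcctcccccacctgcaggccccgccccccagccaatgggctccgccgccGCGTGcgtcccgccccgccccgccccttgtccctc
Hif1a (chr12:73907717-73907866, plus strand): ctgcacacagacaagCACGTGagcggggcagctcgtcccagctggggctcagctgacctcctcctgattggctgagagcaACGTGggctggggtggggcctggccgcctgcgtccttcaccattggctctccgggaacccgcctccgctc
The palindrome CACGTG, which holds the core on both strands, occurred in the windows of Ldha, Bnip3 and Hif1a shown here, and Ldhb held a single GCGTG. A match is a stretch of letters, and binding was not measured.

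Most of these genes showed no detectable difference between the Nf2-knockout and control libraries. In Nf2-knockout libraries 1 of the 32 genes rose, Epas1, and 1 fell, Ndrg1, which is 3.12% in each direction. Over all 18218 genes tested, 4.11% rose and 5.18% fell (9.29% in either direction, 749 rises and 944 falls). Called genes had an adjusted p under 0.05 in edgeR's quasi-likelihood test, two-sided and with Benjamini-Hochberg adjustment over all tested genes. On the deposited FPKM (fragments scaled for transcript length and library depth), limma-trend gave 1100 rises and 649 falls over all genes, 62.9% rises against 44.2% on counts, and called the same 2 members in the same directions. An unadjusted p under 0.05 was reached by 7 members (21.9%), against 24.8% of all tested genes. The order of these shares turned with the method: they were 28.1% and 17.6% in DESeq2, 37.5% and 21.6% in edgeR without knockout replicate 2, and 12.9% and 30.2% in limma on log2(FPKM + 1).

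The fold changes of the members lay below those of genes at large, although few were large against the spread. Of the 32 log2 fold changes (Nf2-knockout over control), 25 were below 0 (78.1%), against 51.1% of all tested genes (48.9% were above 0). With DESeq2-type size factors 23 were below 0 (71.9%, against 49.4% of all tested genes). On log2(FPKM + 1) 20 of 31 were (64.5%, against 39.0%). Their median was −0.23, against −0.01 for all tested genes. On log2(FPKM + 0.1) these medians were −0.10 and 0.09. The groups did not overlap for 9 members (28.1%, against 32.9% of all tested genes), of which 1 was higher (against 15.5%) and 8 were lower (against 17.4%) in Nf2-knockout libraries. The 8 were Gpi1, Pfkp, Tpi1, Gapdh, Pgk1, Hif1a, Ndrg1 and Mxi1 on the CPM scale, and on the deposited FPKM the groups overlapped for Pgk1, Hif1a and Mxi1. Nf2-knockout replicate 3 was the lowest of its group for 26 of the 32 members, with a median deviation of −0.24 on the log2 scale from the group mean where all tested genes gave 0.0019. Without that library the median of the members was −0.15 (against −0.01 for all tested genes), with 22 of 32 below 0 (68.8%, against 51.2%). The labels do not say whether replicates are separate animals or cultures, and p-values therefore reflect library-to-library spread alone, possibly technical.

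**Figure D1:**
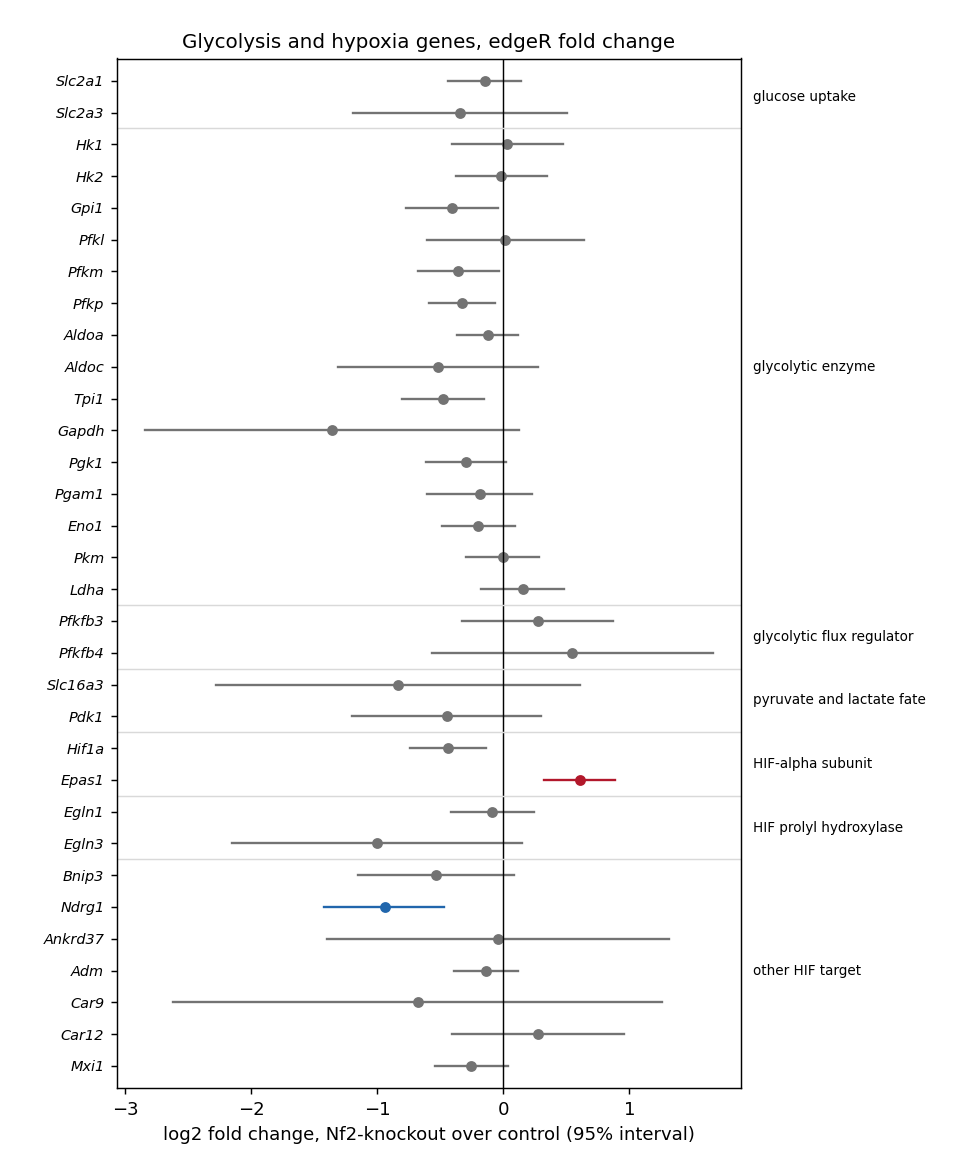
Log2 fold change of each of the 32 genes, Nf2-knockout over control, with its 95% interval from edgeR (n = 3 libraries in each group), grouped by role. Only Epas1 (red, 0.61) and Ndrg1 (blue, −0.94) passed the adjusted threshold, and the signs of Hk2, Pkm, Egln1 and Ankrd37, all near 0, turned on the FPKM scale.

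Per length of transcript, glycolytic enzymes held the highest levels of the group. Pkm, which encodes pyruvate kinase M, had the highest level at 408 ± 49.0 FPKM in Nf2-knockout and 382 ± 27.9 FPKM in control libraries (SD, n = 3 in each group, here and below). The aldolase gene Aldoa (314.5 ± 25.9 against 319.9 ± 20.5 FPKM) and Pgk1, the gene of phosphoglycerate kinase (238 ± 39.3 against 273 ± 9.19 FPKM), followed. Pgk1 and Ldha (262 ± 32.6 against 219.8 ± 28.9 FPKM) changed places between the groups. The row of Gapdh (9.17 ± 6.53 against 21.9 ± 4.84 FPKM) is set by near-identical copies, described with the enzymes. Of the HIF targets outside glycolysis, Adm, the gene of the vasodilator adrenomedullin, was at 134 ± 18.5 and 137 ± 3.65 FPKM and Bnip3, a mitophagy receptor, at 34.6 ± 9.45 and 46.7 ± 13.0 FPKM. The hypoxia markers Car9, Ankrd37 and Car12 were low, with means over the 6 libraries of 1.06, 0.505 and 0.44 FPKM. Slc2a3, which encodes the glucose transporter GLUT3, was lowest at 0.294 FPKM, against 18.1 FPKM for Slc2a1, which encodes GLUT1. GLUT1 was thus the main transporter of the pair, with Slc2a3 at 1.48% of their summed FPKM in Nf2-knockout and 1.67% in control libraries.

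**Figure D2:**
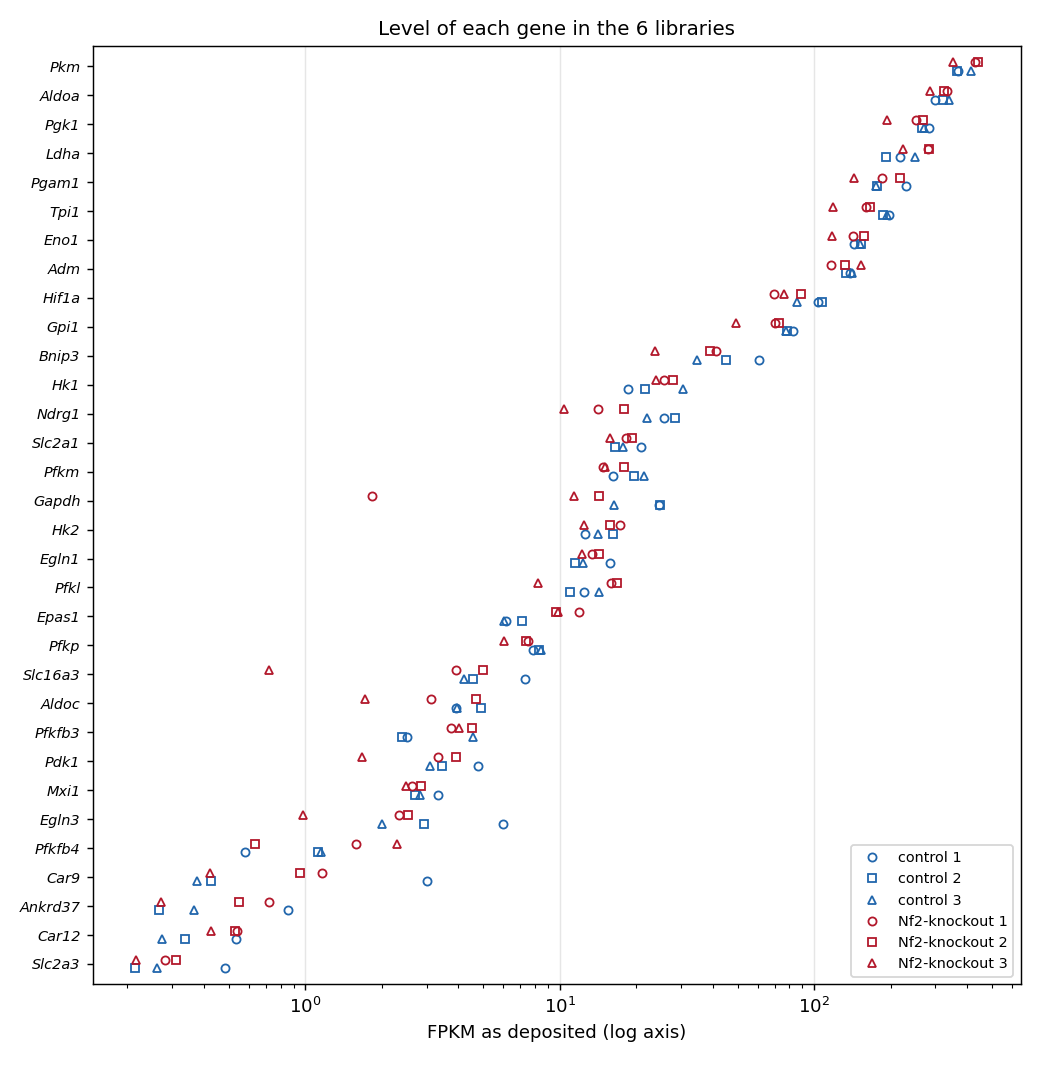
FPKM of the 32 genes in each of the 6 libraries, ordered by mean level on a log axis; open circles, squares and triangles are replicates 1, 2 and 3 (control blue, Nf2-knockout red). Levels ran from Slc2a3 (mean 0.294 FPKM) to Pkm (mean 395 FPKM), and the groups overlapped for most genes.

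Of the alpha subunits of HIF, Epas1 rose, and the values of Hif1a were lower without passing the test. Epas1 (HIF-2α; ENSMUSG00000024140, chromosome 17, 86753700 to 86833410, plus strand, GRCm38) stood at 39.3, 45.6 and 39.3 CPM in control replicates 1 to 3 and 71.8, 58.4 and 58.7 CPM in Nf2-knockout replicates 1 to 3. Every Nf2-knockout library was above every control. Epas1 rose from 41.4 ± 3.64 to 63.0 ± 7.61 CPM, 52.2% above control (log2 fold change 0.61, SE 0.12, adjusted p = 0.0252, edgeR). Its call was held without Nf2-knockout replicate 2 (adjusted p = 0.0413) and lost without each other single library (0.0508 to 0.0751) and with the replicate number as a block (0.0708). Hif1a (HIF-1α; ENSMUSG00000021109, chromosome 12, 73901375 to 73947530) stood at 700.4, 727 and 587 CPM in controls and 443, 567.5 and 478 CPM in Nf2-knockout libraries. The groups did not overlap in CPM, the gap being small, and overlapped in FPKM, where knockout replicate 2 was at 89.2 and control replicate 3 at 85.9. Hif1a did not pass edgeR's test (log2 fold change −0.44, SE 0.128, adjusted p = 0.0831) and passed in DESeq2 at an adjusted p = 0.0481. Of the summed FPKM of both subunits, Epas1 made up 11.95% ± 2.44 in Nf2-knockout and 6.12% ± 0.506 in control libraries, so that Hif1a remained the main transcript of the pair in both. In bulk RNA, fewer cells of a type and less RNA per cell cannot be told apart.

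The hydroxylases that target these subunits did not pass the test. Egln1 (PHD2), the main oxygen sensor of the family, stood at 65.1, 47.3 and 51.3 CPM in controls and 52.0, 55.1 and 46.8 CPM in Nf2-knockout libraries, with overlapping groups (log2 fold change −0.09, 95% interval −0.42 to 0.24). Egln3 (PHD3), itself a HIF target, stood at 18.3, 8.98 and 6.20 CPM in controls and 6.70, 7.27 and 2.77 CPM in Nf2-knockout libraries. Control replicate 1 held the highest value of Egln3, and Nf2-knockout replicate 3 the lowest (log2 fold change −1.002, 95% interval −2.15 to 0.15, adjusted p = 0.263, edgeR).

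Of the 7 other HIF targets, 1 fell (against 5.18% of all tested genes). Ndrg1, a stress-responsive gene induced by hypoxia and differentiation (ENSMUSG00000005125, chromosome 15, 66929318 to 66969640, minus strand), stood at 195, 215 and 168 CPM in controls and 100.4, 127 and 73.2 CPM in Nf2-knockout libraries. All 3 knockout values lay below the lowest control. Ndrg1 fell from 193 ± 23.6 to 100.3 ± 27.0 CPM, a change of −48.0% (log2 fold change −0.94, SE 0.201, adjusted p = 0.0322, edgeR). Like Epas1, it kept its call without Nf2-knockout replicate 2 (adjusted p = 0.0195) and lost it without each other library (0.0553 to 0.111). Bnip3 stood at 157, 117 and 91.2 CPM in controls and 100.2, 95.3 and 57.1 CPM in Nf2-knockout libraries, with overlapping groups (−0.53, adjusted p = 0.269). Adm stood at 256, 248.8 and 264 CPM in controls and 204, 232 and 264 CPM in Nf2-knockout libraries, the highest of each group being nearly equal (−0.14, 95% interval −0.39 to 0.12). Mxi1, a MYC antagonist, was at 23.2 ± 2.47 CPM in the control and 19.5 ± 1.49 CPM in Nf2-knockout libraries (−0.25, adjusted p = 0.257). Car9 and Car12, which encode carbonic anhydrases of the cell surface, had 60 to 472 and 139 to 277 counts per library. The value of Car9 hung on control replicate 1 (7.96 CPM against 1.17 and 1.05 CPM in the other controls), and its log2 fold change turned from −0.68 to 0.94 without it. Ankrd37 had 26 to 91 counts per library, and its span overlaps Ufsp2 on the opposite strand, which had a mean of 3187 counts.

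**Figure D3:**
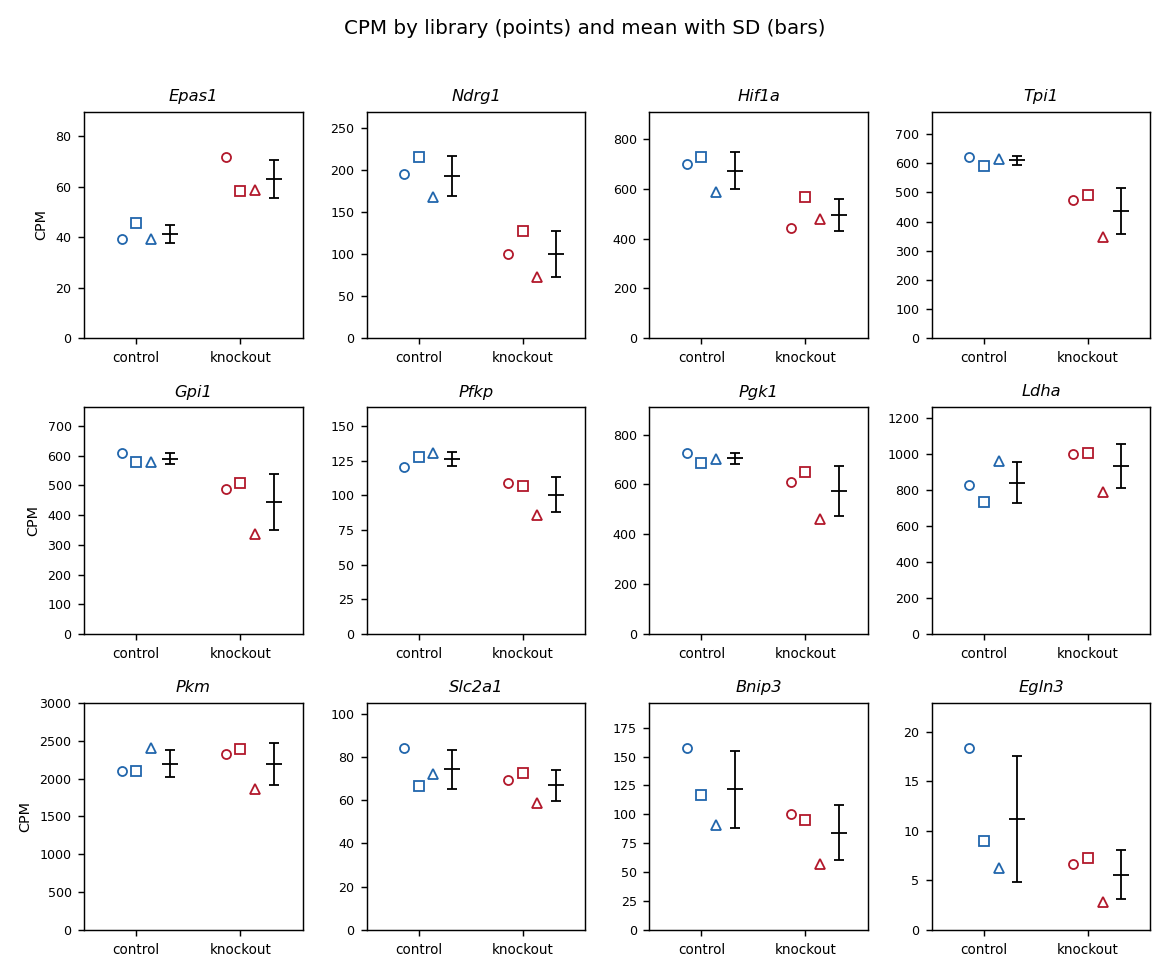
CPM of 12 of the genes in each library (circle, square and triangle for replicates 1, 2 and 3; control blue, Nf2-knockout red), with group mean and SD in black and axes from 0. Epas1 was higher and Ndrg1 lower in each knockout library than in each control, whereas Ldha, Pkm, Slc2a1, Bnip3 and Egln3 overlapped.

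None of the 15 glycolytic enzymes passed edgeR's test, and DESeq2 called 1 of them, Tpi1. In edgeR 4 of the 15 had an unadjusted p under 0.05, near the share of all tested genes (24.8%). The 15 genes together summed to 1914, 1844 and 1980 FPKM in control replicates 1 to 3 and to 1938, 2036 and 1563 FPKM in Nf2-knockout replicates 1 to 3. The knockout mean was 0.965 of the control mean (exact two-sided permutation test, p = 0.9, n = 3 against 3, smallest p possible 0.1). Nf2-knockout replicates 1 and 2 lay within or above the control range, and replicate 3 below it. Without replicate 3 the ratio on FPKM was 1.04. On CPM, with all 6 libraries, the ratio was 0.91 (same permutation test, p = 0.4). With near-identical copies merged into their genes it was 0.895 on CPM (same permutation test, p = 0.3). The median log2 fold change of the 15 was −0.20, with 12 below 0 (against 51.1% of all tested genes).

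The entry steps, which trap glucose in the cell and commit it to glycolysis, gave values near 0 or below. Hexokinase was expressed from Hk1, at 182, 212 and 303 CPM in controls and 237, 257 and 217 CPM in Nf2-knockout libraries, and from Hk2, at 86.1, 111.7 and 97.6 CPM in controls and 111.6, 101.7 and 79.0 CPM in Nf2-knockout libraries. Both genes overlapped between groups, and Hk2 made up 36.8% and 38.3% of their summed FPKM in Nf2-knockout and control libraries. Gpi1, which encodes glucose-6-phosphate isomerase (chromosome 7, 34201330 to 34230336), stood at 609.6, 579.6 and 579.1 CPM in controls and 489, 507 and 337 CPM in Nf2-knockout libraries. The knockout values of Gpi1 lay below the controls without overlap, and the log2 fold change of −0.41 (SE 0.156) did not pass (adjusted p = 0.161, edgeR). Of the phosphofructokinases, the pacemaker of glycolysis, Pfkl (liver type) was at 97.9 ± 34.3 CPM in the knockout and 96.9 ± 13.5 CPM in control libraries, Pfkm (muscle type) at 57.2 ± 6.48 and 73.3 ± 10.6 CPM, and Pfkp (platelet type) at 100.6 ± 12.8 and 126 ± 5.34 CPM. The Pfkp values had an adjusted p = 0.119 and the Pfkm values an adjusted p = 0.162 (edgeR). Both genes overlap a gene on the opposite strand, Pitrm1 with 77.0% of the mean count of Pfkp and Senp1 with 23.0% of that of Pfkm, and without strand information such reads cannot be told apart. Pfkfb3 and Pfkfb4, which make and break the allosteric activator of phosphofructokinase, had higher means without passing the test. Pfkfb3 stood at 21.9, 20.9 and 39.9 CPM in controls and 30.6, 36.8 and 32.4 CPM in Nf2-knockout libraries (0.27, adjusted p = 0.571), and it passed only without control replicate 3, its highest library (0.64, adjusted p = 0.0418). Pfkfb4 ran from 3.27 to 6.57 CPM in controls and from 3.37 to 11.9 CPM in Nf2-knockout libraries.

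In the middle of the pathway, Tpi1 came closest to a call. Tpi1, which encodes triosephosphate isomerase (chromosome 6, 124810586 to 124814296), stood at 621, 591 and 616 CPM in controls and 474, 491 and 346 CPM in Nf2-knockout libraries. The lowest control exceeded the highest knockout library by a wide margin. The change was −28.3% (log2 fold change −0.48, SE 0.139, adjusted p = 0.0804 in edgeR and 0.0334 in DESeq2). Pgk1 stood at 727, 685 and 701 CPM in controls and 609, 651 and 462 CPM in Nf2-knockout libraries, without overlap in CPM but with overlap in FPKM (−0.30, adjusted p = 0.228). Aldoa, at 1073 ± 74.9 CPM in the control and 983 ± 89.5 CPM in Nf2-knockout libraries, overlapped (−0.13, 95% interval −0.37 to 0.12). Its relative Aldoc, the aldolase of brain, made up 0.982% and 1.31% of their summed FPKM in Nf2-knockout and control libraries.

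Gapdh, often taken as a reference gene, could not be read from its own row. It stood at 116.5, 118 and 78.3 CPM in controls and 8.18, 63.8 and 50.02 CPM in Nf2-knockout libraries, far below its neighbours in the pathway. A search with its transcript found 78 other genes of the table that matched it over at least 200 bases at 95% identity, led by Gm13394, Gm7336 and Gm5559, and these held most of the counts. The row of Gapdh itself held 6.28%, 6.21% and 4.76% of the summed counts in controls and 0.58%, 3.86% and 3.9% in Nf2-knockout replicates 1 to 3. With the copies added, the sum was 1856, 1902 and 1646 CPM in controls and 1411, 1655 and 1282 CPM in Nf2-knockout libraries. The log2 fold change was −1.36 (adjusted p = 0.24, edgeR) for the row alone and −0.31 (SE 0.121, adjusted p = 0.163) for the sum. The groups did not overlap on the row, and overlapped on the sum, where control replicate 3 lay below Nf2-knockout replicate 2. Of the other members, Eno1 held 85.1%, Pgam1 89.8% and Pgk1 94.4% of the counts summed with their copies, and 5 more members with copies at least 96.4%. The calls over the members were equal with all copies merged into their genes, Epas1 higher and Ndrg1 lower.

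**Figure D4:**
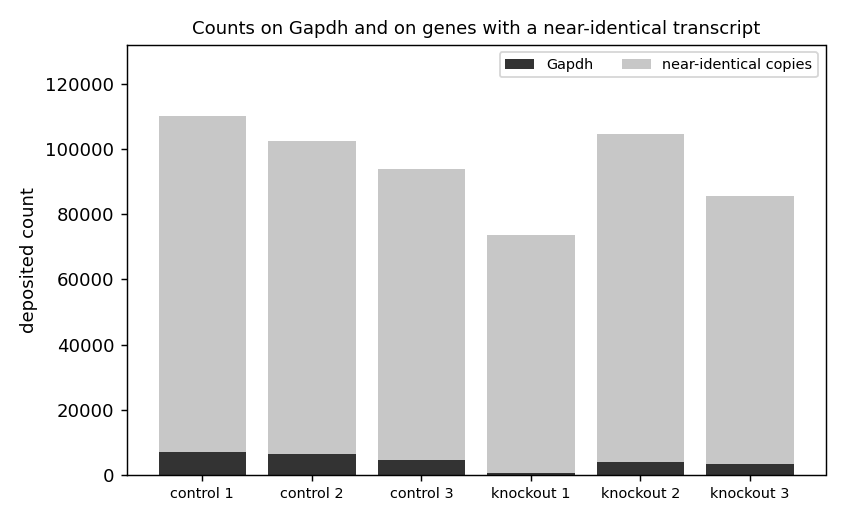
Deposited counts on the Gapdh row (dark) and on the 78 genes with a near-identical transcript (light) in each library, stacked from 0. The Gapdh row held between 0.58% (Nf2-knockout replicate 1) and 6.28% (control replicate 1) of the sum.

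At the end of the pathway the levels were high and the groups overlapped on the rows of the genes themselves. Pgam1, which encodes phosphoglycerate mutase, stood at 519.8, 403 and 404 CPM in controls and 397, 465 and 303 CPM in Nf2-knockout libraries (−0.19, 95% interval −0.60 to 0.23). Eno1, which encodes α-enolase, stood at 881, 949 and 941 CPM in controls and 826, 916 and 672.5 CPM in Nf2-knockout libraries (−0.20, 95% interval −0.49 to 0.09). With its copies added, Eno1 did not overlap, at 1027, 1138 and 1128 CPM in controls and 1002, 1011 and 799 CPM in Nf2-knockout libraries, and did not pass (−0.23, adjusted p = 0.28, edgeR). Pkm stood at 2100, 2100 and 2400 CPM in controls and 2320, 2386 and 1869 CPM in Nf2-knockout libraries. The interval of its log2 fold change ran from −0.29 to 0.28 around −0.0055. Ldha, the lactate dehydrogenase subunit that favours lactate formation and a standard HIF target, was at 827, 730.4 and 958 CPM in controls and 1000, 1006 and 789 CPM in Nf2-knockout libraries (0.15, 95% interval −0.18 to 0.48, adjusted p = 0.567).

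Genes at either end of the pathway gave no call. Slc2a1 (chromosome 4, 119108711 to 119137983) stood at 83.9, 66.7 and 72.0 CPM in controls and 69.1, 72.7 and 58.8 CPM in Nf2-knockout libraries (−0.15, 95% interval −0.44 to 0.14). Slc16a3, which encodes the lactate exporter MCT4, was at 44.6, 28.1 and 25.9 CPM in controls and 22.5, 28.7 and 4.09 CPM in Nf2-knockout libraries, with Nf2-knockout replicate 3 far below the rest (−0.83, SE 0.613, adjusted p = 0.464). Pdk1, a kinase that shuts pyruvate out of the mitochondrion by inactivating pyruvate dehydrogenase, was at 42.7, 30.9 and 27.9 CPM in controls and 27.8, 32.8 and 13.8 CPM in Nf2-knockout libraries (−0.45, adjusted p = 0.449). For Slc16a3 as for Pdk1, the lowest value was that of Nf2-knockout replicate 3 and the highest that of control replicate 1.

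Around these members, 6 lists of the same pathways hold 130 further genes. Of 125 tested, 3 rose (2.4%, against 4.11% of all tested genes) and 19 fell (15.2%, against 5.18%). The lists were chosen with earlier results of these data known, so these shares are descriptive and give no independent test. The number of falls was 7 when knockout replicate 1 or 3 was left out, 10 when control replicate 1 was and 9 when control replicate 2 was. Falls over all genes dropped in these fits as well, from 944 of 18218 with all 6 libraries. They were 320 of 18874 without knockout replicate 1 and 405 of 18766 without knockout replicate 3. Without control replicate 1 they were 527 of 18860, and without control replicate 2 they were 382 of 18918. Summed macrophage markers (15 genes, of which 6 of 14 tested fell and 0 rose) were lower in each Nf2-knockout library (50.1 to 115 CPM) than in each control (163 to 439 CPM). Fibroblast and perichondrium markers (9 genes, 2 fell and 0 rose) summed to 8311 to 10460 CPM and 12180 to 15490 CPM in these groups. The pericyte and smooth muscle list (9 genes, 3 rose and 1 fell) was higher, at 577 to 892 against 393 to 435 CPM. The part of these shifts in the falls and rises named here was not tested. Chondrocyte markers (17 genes, 2 rose and 1 fell), led by Comp and Col2a1, were present in each library, summing to 1089 to 2028 CPM in the knockout and 951 to 1423 CPM in control libraries, below the fibroblast sums.

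Some of these genes are isozymes, relatives of the members that carry out the same step. Among 24 tested genes of further glycolysis and glucose transport, 1 rose and 2 fell (against 4.11% and 5.18% of all tested genes), with a median of 0.08. Eno3, which encodes the muscle-type β-enolase (chromosome 11, 70657202 to 70662513), stood at 8.196, 6.84 and 11.1 CPM in controls and 26.9, 27.9 and 27.5 CPM in Nf2-knockout libraries. The 3 knockout values were close together and far above the highest control. Eno3 rose by 1.66 on the log2 scale (SE 0.183, adjusted p = 0.00465, edgeR, called in all 6 fits that left out 1 library), and its part of the summed FPKM of Eno1, Eno2 and Eno3 was 9.12% ± 1.33 in Nf2-knockout and 2.67% ± 0.638 in control libraries. Pgam2, the muscle-type phosphoglycerate mutase (chromosome 11, 5801640 to 5803733), went the other way, from 62.7, 59.9 and 72.2 CPM in controls to 15.3, 22.2 and 16.3 CPM in Nf2-knockout libraries. It fell by 1.86 on the log2 scale (SE 0.168, adjusted p = 0.00332, also called in all 6), and its part of the summed FPKM of Pgam1 and Pgam2 was 9.89% ± 1.48 in Nf2-knockout and 25.9% ± 3.77 in control libraries. Skeletal muscle markers summed to 2.17 to 4.92 CPM in the 6 libraries, with 0 of 4 tested genes called and Myh8 and Myod1 at 0 in each.

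Of the 3 isozymes called, Ldhb showed the largest shift in CPM and the smallest on the log2 scale. Ldhb, the heart-type subunit that favours the oxidation of lactate (chromosome 6, 142490249 to 142507957), stood at 1876, 1239 and 1717 CPM in controls and 559.7, 857 and 429 CPM in Nf2-knockout libraries. The highest knockout library was well below the lowest control. Ldhb fell by 1.39 on the log2 scale (SE 0.271, adjusted p = 0.024, edgeR), with a call in 2 of the 6 fits that left out 1 library. Its pseudogene copy, which may share its reads, was lower with it, at 204 to 349.8 CPM in controls and 65.3 to 119 CPM in Nf2-knockout libraries. Ldhb made up 80.0% ± 2.41 of the summed FPKM of Ldha and Ldhb in control and 57.3% ± 6.05 in Nf2-knockout libraries. Ldhb thus remained the larger part in each library on FPKM, while the groups overlapped in Ldha. In CPM, which is not scaled for length, Ldhb lay above Ldha in each control. It lay below Ldha (1000, 1006 and 789 CPM) in Nf2-knockout replicates 1 to 3.

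**Figure D5:**
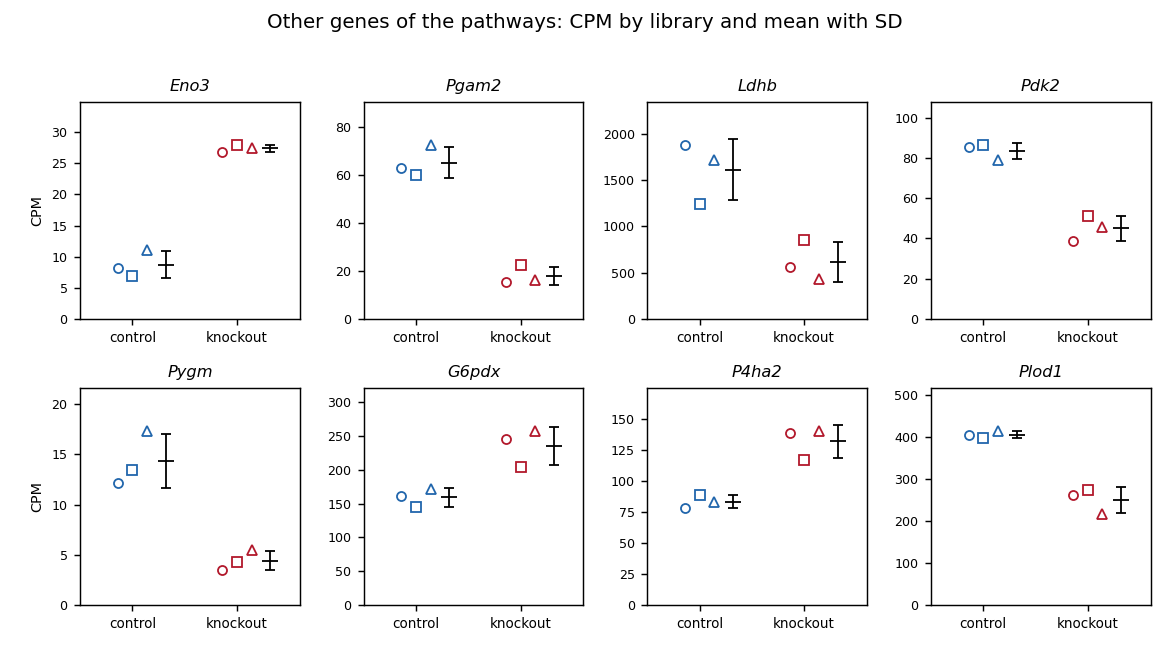
CPM of 8 called genes of the wider pathways in each library (circle, square and triangle for replicates 1, 2 and 3; control blue, Nf2-knockout red), with group mean and SD in black and axes from 0. Eno3, G6pdx and P4ha2 were higher and Pgam2, Ldhb, Pdk2, Pygm and Plod1 lower in each knockout library than in each control.

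Of 16 tested genes of pyruvate and lactate handling, 5 fell and 0 rose (against 5.18% and 4.11% of all tested genes). In this list 15 had a log2 fold change below 0 (against 51.1%), and the median was −0.41 (against −0.01). Those that fell were Mpc2, a subunit of the mitochondrial pyruvate carrier (−0.49), Dlat, the acetyltransferase of pyruvate dehydrogenase (−0.49), Pdp1, the phosphatase that activates this complex (−0.53), and the kinases Pdk2 and Pdk4, which inactivate it (−0.89 and −0.57). The activator Pdp1 and the inhibitors Pdk2 and Pdk4 thus fell together, whereas Pdk1, Pdk3 and Pdp2 were not called. Pdk2 (chromosome 11, 95026258 to 95041354) was at 85.3, 86.3 and 78.9 CPM in controls and 38.5, 50.86 and 45.6 CPM in Nf2-knockout libraries, and was called in all 6 fits without 1 library (adjusted p = 0.00822, edgeR). Calls for Mpc2 and Pdk4 were held in 1, and for Dlat and Pdp1 in 3, of the 6 fits without 1 library. Leaving out knockout replicate 1, knockout replicate 3 or control replicate 2 left 1 fall in this list, and leaving out control replicate 1 left 3. Falls over all genes were also fewer in these fits.

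Of 14 tested glycogen genes, 4 fell and 0 rose (against 5.18% and 4.11% of all tested genes), with a median of −0.23, and 10 did not pass. Pygm, the muscle-type glycogen phosphorylase (chromosome 19, 6384399 to 6398459), was at 12.1, 13.5 and 17.3 CPM in controls and 3.52, 4.29 and 5.43 CPM in Nf2-knockout libraries. Its log2 fold change was −1.69 (adjusted p = 0.00795, edgeR), with a call in all 6 fits without 1 library. The phosphoglucomutase genes Pgm1 (−0.55) and Pgm2 (−0.51) fell less and lost their calls in 5 of the 6 fits without 1 library. Leaving out knockout replicate 1 or 3, or control replicate 1 or 2, left 1 fall in this list, in fits where falls over all genes were also fewer. In the pentose phosphate pathway, which branches off glycolysis to make NADPH and ribose, 1 of 11 tested genes rose and 0 fell. In this list 10 had a log2 fold change above 0 (against 48.9% of all tested genes), with a median of 0.24. G6pdx, the glucose-6-phosphate dehydrogenase gene of its entry step (chromosome X, 74409483 to 74429194), stood at 160.5, 144.5 and 172 CPM in controls and 245, 204 and 257 CPM in Nf2-knockout libraries. G6pdx rose by 0.57 (SE 0.116, adjusted p = 0.0285, edgeR), with a call in 2 of the 6 fits without 1 library. On log2(FPKM + 1), 4 of the pentose phosphate genes rose. In that fit 1100 of all 14117 tested genes rose, which was 62.9% of its calls.

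Further HIF targets were mixed. Of 43 tested, 1 rose and 7 fell (against 4.11% and 5.18% of all tested genes), with a median of −0.11. The 6 with the smallest p are given here. P4ha2, a collagen prolyl hydroxylase (chromosome 11, 54100095 to 54131662), rose from 77.7, 88.2 and 83.1 CPM in controls to 138.5, 116.5 and 139.8 CPM in Nf2-knockout libraries (0.67, SE 0.103, adjusted p = 0.0117, edgeR). Plod1, a collagen lysyl hydroxylase, fell from 406 ± 7.70 to 249.9 ± 30.2 CPM (−0.70, adjusted p = 0.0107), so enzymes that modify collagen changed in opposite directions. Tfrc, the transferrin receptor, fell from 166.5 ± 16.7 to 59.5 ± 17.9 CPM (−1.48), and Cp, which encodes the iron-oxidising protein ceruloplasmin, from 676 ± 119 to 245 ± 61.3 CPM (−1.46). The chemokine gene Cxcl12 fell from 867 ± 105 to 278 ± 93.6 CPM (−1.64) and the circadian repressor Bhlhe41 from 22.0 ± 1.95 to 13.7 ± 0.411 CPM (−0.69). Apart from Bhlhe41, called in 3, these genes were called in all 6 fits without 1 library. Among 23 tested regulators of HIF, 1 fell and 0 rose: Siah1a, a ubiquitin ligase that acts on the hydroxylases, with a log2 fold change of −0.54 (adjusted p = 0.0315, called in 1 of 6 fits). Siah1a has 2 near-identical copies, and its row held 85.2%, 79.1% and 77.6% of the summed counts in Nf2-knockout replicates 1 to 3. In control replicates 1 to 3 the row held 90.1%, 87.6% and 83.9%, and the sum was not tested. Vhl (26.4 ± 0.68 against 32.2 ± 1.76 CPM), Arnt (33.5 ± 1.58 against 34.0 ± 4.75 CPM) and the asparaginyl hydroxylase gene Hif1an did not pass.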

How the data were processed

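Poly(A) RNA of 3 Nf2-knockout and 3 control libraries was used, with groups and replicate numbers from the sample titles. Cutadapt 1.9, HISAT2 2.0.4, StringTie 1.3.4d and edgeR are listed without roles, per the submitters' processing notes. Not given in the sources used here are the genome build, the strandedness and how counts were made. For each gene and library the authors deposited a whole-number count and an FPKM value, scaled by them for length and depth. Genes with a count of 0 carry 0.0001 in the FPKM columns. Positions were equal to GENCODE M21 (GRCm38) for 94.2% of 55141 genes and 27 of 33 member rows. Where genes shared a symbol, the lowest identifier kept it. Of the table's columns of values, all were used.

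Counts were tested with edgeR 4.0.16 in R 4.3.3 (filterByExpr, TMM, glmQLFit, glmQLFTest on group alone), over 18218 genes, adjusted by Benjamini-Hochberg and called under 0.05. SE is the size of the log2 fold change divided by the root of F, and fold changes carry a prior count of 0.125. The test was checked on simulated counts. Copies were found with blastn 2.17.0 against GENCODE M21 transcripts. Alternatives were DESeq2 1.42.0, RLE factors, no filter, the replicate block, limma 3.58.1 on log2(FPKM + 1) and log2(FPKM + 0.1) with a minimum of 0.5 FPKM in 3 libraries, and leaving out each library; merging copies was added after the data were seen. All members were named, with each called gene of 6 pathway lists, or the 6 with the smallest p where more passed, save 1 gene of that rule that is not reported here. Members and lists were chosen with earlier results of these data known; the isozyme shares were chosen after values were seen. The erythroid, endothelial, osteoblast and adipocyte marker lists gave 0 rises and 0 falls, except 1 rise in the endothelial list. Counting error alone does not cover the spread between libraries.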

Additional observations from a re-analysis of the deposited data

How the results depend on the processing

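Over all genes, 1693 were called, against 2618 with DESeq2, 1062 with limma on FPKM without a filter, 923 with the replicate block and 629 to 1186 without 1 library. The labels do not say whether replicate numbers pair the libraries. Over all tested genes, correlations of same-numbered deviations were −0.09, 0.03 and 0.023, and those of differently numbered libraries ran from −0.141 to 0.122. With 3 libraries in each group, these values do not settle whether same-numbered libraries share an origin. With the replicate block, 0 members rose (Epas1 lost its call) and Ndrg1 still fell. Without 1 library, 0 to 1 members rose and 0 to 1 fell, the rise being Pfkfb3 in place of Epas1 without control replicate 3. DESeq2 called 3 falls (Tpi1, Hif1a and Ndrg1), and limma without a filter 0. Among the ratios of the summed enzymes given here, the lowest was 0.895 (CPM, all 6 libraries, copies merged). The highest was 1.04 (FPKM, without Nf2-knockout replicate 3), and no ratio on CPM without 1 library is given. Over all alternatives, 397 values of members kept their direction and side of the threshold, 12 lost and 3 gained a call, and 34 turned sign, each of a gene that was not called; the cause was not tested. With DESeq2, Hk2 was at 0.00256 and Pkm at 0.012, and with RLE factors at 0.000857 and 0.0104. On log2(FPKM + 1), with and without a filter, Hk2 was at 0.0747, Pkm at 0.0904, Egln1 at 0.0214 and Ankrd37 at 0.0249, and on log2(FPKM + 0.1) at 0.0789, 0.0905, 0.0235 and 0.0896. With the block, Pfkl was at −0.0411 and Ankrd37 at 0.0136, and with copies merged, Pkm was at 0.00216. Without 1 library, ranges that crossed 0 were −0.563 to 0.0787 for Slc2a3, −0.12 to 0.268 for Hk1 (also −0.0293 and −0.0314), −0.104 to 0.123 for Hk2, −0.164 to 0.288 for Pfkl, −0.0685 to 0.105 for Pkm, −0.181 to 0.0579 for Egln1, −0.348 to 0.58 for Ankrd37 and −1.1 to 0.936 for Car9. The 6 pathway lists gave 3 rises and 19 falls, against 7 and 24 with DESeq2, 4 and 13 with the block, 7 and 15 on log2(FPKM + 1), and 5 and 7 there without a filter. Depth limits Ankrd37, Car9, Car12 and Slc2a3 most, the rarest members in counts.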
